A study of Mus musculus with 30 samples.

Results

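The 39 genes described here encode the enzymes of glycolysis, the transporters that carry glucose in and lactate out, the regulators that set the flux of the pathway, and genes of the cellular response to low oxygen. They were listed by name, and each was read from the probe set that carried only its symbol and had the highest mean over all 30 arrays. Of the 39 genes, 37 were measured in this way among 18194 genes in all; Gpi1 and Bnip3l had no probe set with 1 symbol and are not analysed here. Gapdh was read from the 3′ probe set that the array carries as a control. The study compared CD11b+ cells, which are cells bearing integrin αM, a surface protein of neutrophils, monocytes and macrophages. Total RNA from tumor infiltrates, spleens, bone marrow and cultures was hybridised to whole-genome mouse arrays, 3 per group in 10 groups.

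The tumor groups on the BALB/c background were CD11b+ cells from C26-GM tumors, from spleens of mice bearing C26-GM, and from 4T1 tumors, and their reference was the spleen of healthy BALB/c mice. C26-GM is labelled as a GM-CSF tumor, and 4T1 is a mouse mammary carcinoma line. On the C57BL/6 background the cells came from EL-4 tumors, a T cell lymphoma line, and from MCA203 tumors, a fibrosarcoma line, with spleen of healthy C57BL/6 mice as the reference. BALB/c bone marrow was grown for 4 days with GM-CSF and IL-6 or with GM-CSF and G-CSF, and fresh BALB/c bone marrow was the reference for both. Age, sex and the number of animals behind an array are not given in the labels, and nothing in them says that the 3 arrays of a group came from separate animals or cultures, so the p-values measure the spread between these arrays, which may be technical. The infiltrates had no reference from another solid tissue, so the difference between tumor and spleen as organs is part of every such comparison.

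Glycolysis splits glucose into pyruvate, and lactate dehydrogenase turns pyruvate into lactate when cells rely on the pathway for energy. Under low oxygen the prolyl hydroxylases encoded by the Egln genes no longer mark HIF-1α for destruction, and the stabilised factor binds short motifs with a core of ACGTG or GCGTG and raises the transcription of glycolytic genes and of genes such as Bnip3 and Egln3. Hif1a, the gene of that factor, is also transcribed in response to other signals, and neutrophils and macrophages are known to rely on glycolysis.

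Of the 14 genes called higher in every tumor infiltrate described below, the promoters of 6 are shown, and no further rule is given for this choice. In the windows of the others, not shown, the most matches per gene ran from 0 in Tpi1 to 4 in Pfkp. The core motif is marked as the sequence feature that background knowledge ties to this gene set. Each window runs from 250 bases before to 50 bases after the gene start in RefSeq on the build GRCm38.p6, on the strand of the gene. Capitals mark ACGTG and GCGTG and their reverse complements CACGT and CACGC, and CACGTG counts as 2 overlapping matches. The Slc2a1 window lies at chr4:119108495-119108794 on the plus strand with 2 matches, and the Pgk1 window at chrX:106186850-106187149 on the plus strand with 2. The first of the windows of Ldha lies at chr7:46845554-46845853 on the plus strand with 7 matches. On the minus strand lie the windows of Egln3 at chr12:54203825-54204124 with 1 match, Bnip3 at chr7:138909457-138909756 with 5, and Ankrd37 at chr8:45999801-46000100 with 4.
Slc2a1: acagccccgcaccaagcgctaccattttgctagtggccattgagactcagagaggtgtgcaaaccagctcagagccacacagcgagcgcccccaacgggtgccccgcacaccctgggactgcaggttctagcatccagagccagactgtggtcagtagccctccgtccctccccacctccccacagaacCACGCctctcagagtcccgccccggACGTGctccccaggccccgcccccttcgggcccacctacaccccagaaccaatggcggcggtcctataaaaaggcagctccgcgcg
Pgk1: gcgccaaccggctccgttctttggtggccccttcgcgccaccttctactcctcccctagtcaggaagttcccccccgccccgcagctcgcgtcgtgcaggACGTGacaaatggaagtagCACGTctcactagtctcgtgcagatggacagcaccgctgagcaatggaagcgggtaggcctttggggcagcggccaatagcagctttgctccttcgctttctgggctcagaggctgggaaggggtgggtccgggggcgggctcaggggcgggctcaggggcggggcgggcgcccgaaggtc
Ldha: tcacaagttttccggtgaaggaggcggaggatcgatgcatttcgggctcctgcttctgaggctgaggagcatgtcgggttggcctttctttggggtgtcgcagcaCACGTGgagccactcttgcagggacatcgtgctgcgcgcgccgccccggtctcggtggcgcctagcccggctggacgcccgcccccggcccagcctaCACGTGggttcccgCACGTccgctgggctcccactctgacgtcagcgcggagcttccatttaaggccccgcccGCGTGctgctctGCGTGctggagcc
Egln3: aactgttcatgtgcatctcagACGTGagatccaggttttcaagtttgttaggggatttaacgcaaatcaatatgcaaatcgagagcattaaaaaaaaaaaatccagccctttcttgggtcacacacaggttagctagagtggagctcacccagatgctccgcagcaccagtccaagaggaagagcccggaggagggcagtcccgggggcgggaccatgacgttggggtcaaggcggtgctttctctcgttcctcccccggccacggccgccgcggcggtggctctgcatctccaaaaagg
Bnip3: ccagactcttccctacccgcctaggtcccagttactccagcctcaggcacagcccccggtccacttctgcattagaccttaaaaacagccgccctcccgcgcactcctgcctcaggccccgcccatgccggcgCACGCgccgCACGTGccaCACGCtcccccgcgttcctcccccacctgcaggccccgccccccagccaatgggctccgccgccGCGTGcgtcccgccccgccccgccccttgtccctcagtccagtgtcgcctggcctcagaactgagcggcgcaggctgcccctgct
Ankrd37: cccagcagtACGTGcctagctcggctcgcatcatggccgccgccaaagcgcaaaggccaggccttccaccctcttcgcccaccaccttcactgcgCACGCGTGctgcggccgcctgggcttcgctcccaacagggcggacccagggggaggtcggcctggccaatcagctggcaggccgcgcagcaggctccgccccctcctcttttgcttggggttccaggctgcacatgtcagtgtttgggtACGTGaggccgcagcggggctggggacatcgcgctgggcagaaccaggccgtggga

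RefSeq windows were found for 35 of the 37 genes. At least 1 match stood in a window of 33 of these 35 genes (94.3%), against 59.3% of 14453 genes measured on the arrays that had a window and 46.7% of all 27025 genes with one. A gene can have several windows and counts if any of them holds a match. By window, a match stood in 80% of the 50 windows of these genes, against 54.6% of 18110 windows of the array's genes. A gene with 3 or more matches was met in 42.9% of these genes, against 15.1% of the array's genes. The windows of these genes were also richer in G and C, with a median of 62.7% against 58.3%, and held a median of 20.5 CpG against 16, and the matches contain CpG themselves. Tpi1 and Eno2 had no match in these windows. The matches describe letters in a window and were not tested as binding sites.

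Several facts about the arrays bear on the values below. Correlations between arrays of one group lay between 0.945 and 0.996. The third C26-GM tumor array had a 3′ to 5′ difference of 2.42 for actin and 1.92 for Gapdh on the log2 scale, against 0.01 to 0.68 and -0.18 to 0.47 on the other arrays. Of the 6 culture arrays, 4 had a narrower spread of values (SD 1.96 to 1.98) than all other arrays (2.06 to 2.28). Expression of the X-inactivation transcript Xist was 5.15 to 6.47 in C26-GM tumors and spleens, against 10.06 to 11.12 in every other group, and the Y-linked Eif2s3y was 8.11 to 8.95 in C26-GM tumors and spleens, against 2.16 to 2.70 elsewhere. The C26-GM groups thus differ from healthy BALB/c spleens and from 4T1 tumors in sex-linked genes too, and the part of this in the results was not tested. The healthy C57BL/6 spleens carry that strain in title and strain label and BALB/c in their source label. H2-Ea, whose transcript C57BL/6 mice lack, stood at 6.61, 6.93 and 6.89 in them and at 12.81, 12.97 and 13.05 in healthy BALB/c spleens, which goes with the strain label. The 5 genes of CD11b+ myeloid identity (Itgam, Itgb2, Ptprc, Spi1 and Tyrobp) averaged 11.16 to 12.11 on every array.

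In all 4 tumor infiltrates most glycolytic enzymes, the glucose transporter Slc2a1 and much of the hypoxia set were higher than in healthy spleen of the same strain. Values are log2 expression, a change of 1 is 2-fold, and a gene was called when limma's adjusted p over all 18194 genes was below 0.05 and the change at least 2-fold. C26-GM tumors and 4T1 tumors share the healthy BALB/c arrays, and EL-4 and MCA203 tumors share the healthy C57BL/6 arrays, so the comparisons of a strain are not independent. C26-GM tumors had 19 of the 37 genes called higher and 2 lower, where 11.4% of all genes were called, 4.26% higher and 7.13% lower. The 4T1 tumors had 25 higher and 2 lower, where 12.3% of all genes were called, 6.83% higher and 5.44% lower. EL-4 tumors had 26 higher and 3 lower, where 10.8% of all genes were called, 6.42% higher and 4.40% lower. MCA203 tumors had 19 higher and 2 lower, where 10.4% of all genes were called, 5.01% higher and 5.42% lower. The median change of the 37 genes was 1.0005 in C26-GM tumors, 1.52 in 4T1 tumors, 1.40 in EL-4 tumors and 1.02 in MCA203 tumors, against 0.11, -0.01, 0.02 and 0.14 over all genes in the same order of tumors. Among the 15 glycolytic enzymes the counts called higher were 9, 12, 13 and 11, with none lower. Among the 14 genes of oxygen sensing and hypoxia they were 7, 10, 9 and 5 higher, with 1, 0, 1 and 1 lower.

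**Figure D1:**
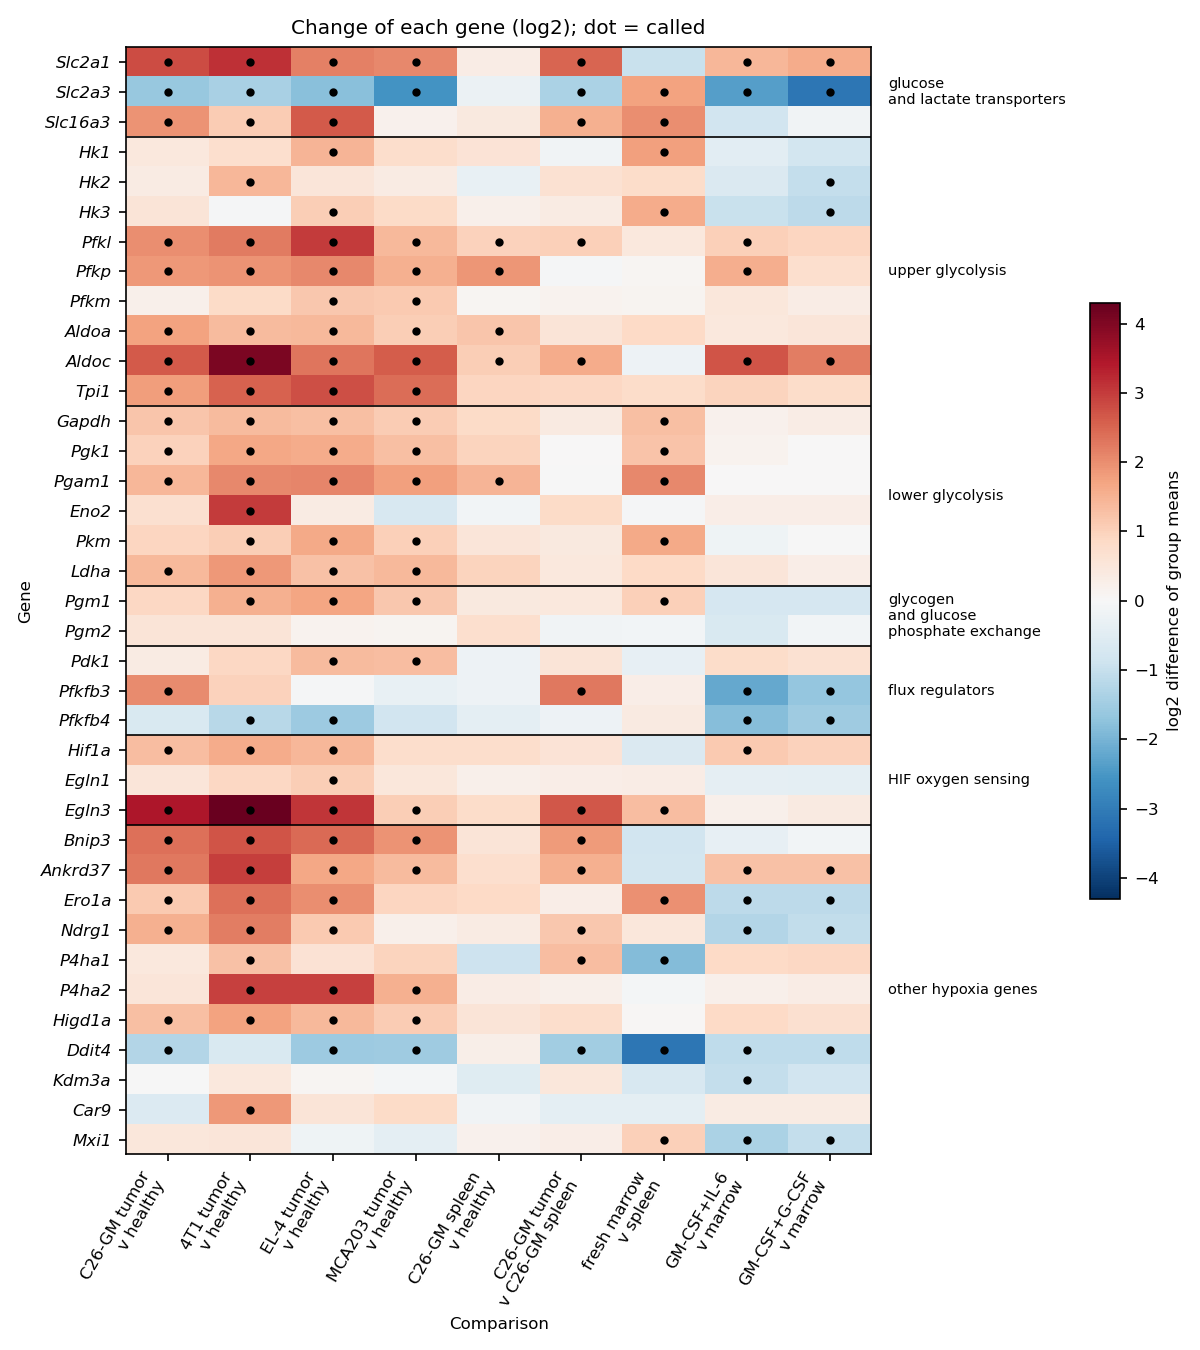
Log2 change of each of the 37 measured genes (down the page, grouped by role) in 9 comparisons (across), coloured from lower to higher in the first-named group, with a dot where the gene was called. Of the 15 glycolytic enzymes, 9 to 13 are called higher in each of the 4 infiltrate columns and none lower, while Slc2a3 is lower in each of them, by 1.41 to 2.56 on the log2 scale.

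The glucose transporters moved in opposite directions. Slc2a1 encodes GLUT1, the widespread basal glucose transporter. Its log2 values were 11.21, 11.22 and 11.50 in C26-GM tumors and 11.42, 11.88 and 11.61 in 4T1 tumors, against 8.65, 8.29 and 8.58 in healthy BALB/c spleens. It stood at 10.30, 10.83 and 10.20 in EL-4 tumors and at 10.12, 10.60 and 10.30 in MCA203 tumors, against 8.56, 8.07 and 8.17 in healthy C57BL/6 spleens. No infiltrate array overlapped the healthy spleens. The log2 changes were 2.80 (standard error 0.30, adjusted p = 4.52e-08) in C26-GM tumors, 3.13 (0.30, 5.92e-09) in 4T1 tumors, 2.18 (0.30, 3.56e-06) in EL-4 tumors and 2.08 (0.30, 6.73e-06) in MCA203 tumors.

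Slc2a3, which encodes GLUT3, a high-affinity glucose transporter found in neurons and leukocytes, was lower in each infiltrate. Its values were 9.15, 9.29 and 8.69 in C26-GM tumors and 8.61, 9.995 and 9.196 in 4T1 tumors, against 10.82, 10.66 and 10.54 in healthy BALB/c spleens. In EL-4 tumors it stood at 8.76, 8.84 and 8.73 and in MCA203 tumors at 7.63, 8.40 and 8.04, against 10.51, 10.74 and 10.48 in healthy C57BL/6 spleens. The changes were -1.63 (SE 0.27, adjusted p = 2.92e-05), -1.41 (0.27, 0.000177), -1.80 (0.27, 8.14e-06) and -2.56 (0.27, 2.78e-08) for C26-GM, 4T1, EL-4 and MCA203 tumors. All 4 of its probe sets were lower in each infiltrate, and with the probe sets of less specific design left out the 4T1 value was -0.84 and not called. Slc16a3, which encodes the lactate exporter MCT4, separated the tumors. It stood at 8.93, 8.35 and 8.28 in C26-GM tumors and at 7.52, 7.92 and 7.53 in 4T1 tumors, against 6.73, 6.53 and 6.47 in healthy BALB/c spleens. EL-4 tumors had 8.72, 10.21 and 8.89 and MCA203 tumors 6.48, 7.22 and 6.77, against 6.78, 6.39 and 6.73 in healthy C57BL/6 spleens. It was called higher in C26-GM tumors (1.94, SE 0.35, adjusted p = 8.89e-05), 4T1 tumors (1.08, 0.35, 0.0202) and EL-4 tumors (2.64, 0.35, 1.39e-06), while MCA203 tumors overlapped healthy spleen (0.19, 0.35, 0.739). The 4T1 change was not called without the second 4T1 array (0.95), the second healthy BALB/c array (1.06) or the third (1.03).

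The enzymes that prepare and split the hexose came next in the pathway. Aldoc, an aldolase best known from brain, had the largest change of the enzymes in C26-GM, 4T1 and MCA203 tumors. It stood at 8.12, 7.71 and 7.62 in C26-GM tumors and 9.24, 9.22 and 9.26 in 4T1 tumors, against 4.78, 5.34 and 5.45 in healthy BALB/c spleens. EL-4 tumors had 8.43, 7.82 and 7.75 and MCA203 tumors 8.34, 8.58 and 8.05, against 5.98, 5.50 and 5.66 in healthy C57BL/6 spleens. The changes were 2.63 (SE 0.21, adjusted p = 1.68e-10), 4.05 (0.21, 3.71e-14), 2.29 (0.21, 3.11e-09) and 2.61 (0.21, 2.26e-10) for C26-GM, 4T1, EL-4 and MCA203 tumors, with the groups apart on every array. The phosphofructokinase subunits Pfkl and Pfkp, which form the committing step of glycolysis, were called in each infiltrate. Pfkl stood at 9.47, 9.07 and 8.98 in C26-GM tumors and 9.39, 9.36 and 9.39 in 4T1 tumors, against 6.88, 7.12 and 7.49 in healthy BALB/c spleens. It had 10.10, 10.73 and 10.07 in EL-4 tumors and 8.36, 9.05 and 8.63 in MCA203 tumors, against 7.24, 7.38 and 7.23 in healthy C57BL/6 spleens, so EL-4 tumors were the highest. The changes were 2.01, 2.22, 3.02 (SE 0.25, adjusted p = 5.56e-10 in EL-4 tumors) and 1.40 for C26-GM, 4T1, EL-4 and MCA203 tumors. Pfkp stood at 9.65, 9.71 and 9.79 in C26-GM tumors and 9.57, 10.02 and 9.72 in 4T1 tumors, against 7.93, 7.80 and 7.82 in healthy BALB/c spleens. In EL-4 tumors it had 9.98, 10.13 and 10.15 and in MCA203 tumors 9.35, 9.75 and 9.57, against 8.16, 7.98 and 7.92 in healthy C57BL/6 spleens. Its changes, 1.87, 1.92, 2.07 and 1.53 in the same order of tumors, were close to each other. Probe sets of Pfkp disagreed in C26-GM tumors, where a second one gave 0.52, and Pfkl in MCA203 tumors was 0.85 and not called as the mean of its probe sets. Aldoa, the aldolase of muscle and most other cells, stood at 12.07, 12.03 and 11.90 in C26-GM tumors and 11.52, 11.83 and 11.62 in 4T1 tumors, against 10.40, 10.17 and 10.27 in healthy BALB/c spleens. It had 11.61, 11.97 and 11.77 in EL-4 tumors and 11.24, 11.58 and 11.47 in MCA203 tumors, against 10.50, 10.35 and 10.30 in healthy C57BL/6 spleens. It changed by 1.72, 1.38, 1.40 and 1.05, and the last was 0.98 without the second MCA203 array.

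Hexokinases, which trap glucose in the cell, were called less widely. Hk2, the inducible hexokinase, was called in 4T1 tumors, with 9.88, 10.13 and 9.93 against 8.47, 8.46 and 8.73 in healthy BALB/c spleens (1.42, SE 0.20, adjusted p = 2.11e-06). C26-GM tumors had 9.02, 8.80 and 8.94 and were not called. In the C57BL/6 tumors Hk2 had 9.29, 9.75 and 9.25 in EL-4 and 8.95, 9.53 and 9.34 in MCA203 tumors, against 8.86, 9.15 and 8.76 in healthy C57BL/6 spleens, and neither was called. Hk1, the hexokinase most cells keep on, was called in EL-4 tumors (1.47), and so was Hk3, a hexokinase of myeloid cells, at 10.31, 10.10 and 10.49 against 9.24, 9.14 and 9.29 in healthy C57BL/6 spleens (1.07). MCA203 tumors had 9.92, 10.03 and 10.24 for Hk3 (0.84, adjusted p = 0.000146, below 2-fold), and C26-GM tumors had 9.47, 9.79 and 10.01 and 4T1 tumors 9.02, 9.23 and 9.15, against 9.28, 9.22 and 9.06 in healthy BALB/c spleens. The Hk3 call in EL-4 tumors was lost without the third EL-4 array (0.98). Pfkm, the muscle phosphofructokinase, was called in EL-4 and MCA203 tumors, each at 1.14.

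Of the enzymes after the split, Tpi1, which interconverts the triose phosphates, was more than 2-fold higher in each infiltrate. It stood at 11.34, 11.14 and 10.91 in C26-GM tumors and 11.83, 11.96 and 11.76 in 4T1 tumors, against 9.35, 9.22 and 9.40 in healthy BALB/c spleens. EL-4 tumors had 11.995, 12.22 and 11.997 and MCA203 tumors 11.52, 11.92 and 11.68, against 9.42, 9.12 and 9.35 in healthy C57BL/6 spleens. The changes were 1.81 (SE 0.14, adjusted p = 1.75e-10), 2.52 (0.14, 2.54e-13), 2.78 (0.14, 6.79e-14) and 2.41 (0.14, 6.04e-13) for C26-GM, 4T1, EL-4 and MCA203 tumors. Ldha, whose product makes lactate, stood at 11.64, 11.46 and 11.49 in C26-GM tumors and 11.88, 12.13 and 11.99 in 4T1 tumors, against 10.13, 10.04 and 10.23 in healthy BALB/c spleens. In EL-4 tumors it had 11.61, 11.85 and 11.66 and in MCA203 tumors 11.71, 11.96 and 11.86, against 10.45, 10.45 and 10.44 in healthy C57BL/6 spleens. Its changes were 1.39 (SE 0.13, adjusted p = 2.22e-09), 1.87 (0.13, 8.96e-12), 1.26 (0.13, 1.97e-08) and 1.39 (0.13, 2.67e-09) in the same order.

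Pgam1, a phosphoglycerate mutase, changed by 1.43, 2.05, 2.11 and 1.77, and Pgk1, the X-linked phosphoglycerate kinase, by 1.0005, 1.66, 1.59 and 1.31, in C26-GM, 4T1, EL-4 and MCA203 tumors. Pgk1 stood at 11.88, 11.56 and 11.69 in C26-GM tumors and 12.32, 12.45 and 12.34 in 4T1 tumors, against 10.73, 10.67 and 10.72 in healthy BALB/c spleens, and at 12.33, 12.53 and 12.35 in EL-4 tumors and 11.97, 12.24 and 12.13 in MCA203 tumors, against 10.88, 10.81 and 10.74 in healthy C57BL/6 spleens. Gapdh had 13.14, 12.96 and 12.73 in C26-GM tumors and 13.09, 13.18 and 13.04 in 4T1 tumors, against 11.77, 11.67 and 11.79 in healthy BALB/c spleens (1.20 and 1.36). The values of Gapdh were 13.11, 13.25 and 13.15 in EL-4 tumors and 12.92, 13.08 and 13.004 in MCA203 tumors, against 12.01, 11.79 and 11.88 in healthy C57BL/6 spleens (1.28 and 1.11). All of these were called. As the mean of its probe sets Gapdh was 0.82 in C26-GM tumors and not called. The Pgk1 call in C26-GM tumors lay at the 2-fold limit and was 0.91 without the first C26-GM tumor array and 0.98 without the second healthy BALB/c array, and 0.99 when quantile normalised again. Pkm, whose product makes pyruvate, was called in 4T1 (1.05), EL-4 (1.64) and MCA203 tumors (1.02), and the 4T1 and MCA203 values were 0.9996 and 0.92 without the second array of their group. The calls were also lost without the third healthy BALB/c array (0.99 in 4T1 tumors) and without the second or the third healthy C57BL/6 array (0.97 and 0.998 in MCA203 tumors). Eno2, the neuronal enolase, was called in 4T1 tumors alone among the infiltrates, with 6.71, 7.003 and 6.32 against 3.73, 3.53 and 3.75 in healthy BALB/c spleens (3.01, SE 0.24, adjusted p = 1.33e-10). Its group mean was under 5.113, the 40th percentile of all group means, in the 9 other groups. The deposited values carry no detection call, so whether such low levels were above background, and with it the size of a change against them, is not known. Pgm1, which links glycogen to glycolysis, was called in 4T1 (1.52), EL-4 (1.699) and MCA203 tumors (1.15), and as the mean of its probe sets none of these was called (0.90, 0.78 and 0.44).

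The regulators of flux had no common direction. Pfkfb3 and Pfkfb4 encode enzymes that set the level of fructose 2,6-bisphosphate, an activator of phosphofructokinase. Pfkfb3 stood at 9.82, 9.52 and 9.29 in C26-GM tumors and at 8.24, 8.99 and 8.29 in 4T1 tumors, against 7.43, 7.53 and 7.55 in healthy BALB/c spleens. It was called in C26-GM tumors (2.04, SE 0.38, adjusted p = 0.000134) and not in 4T1 tumors (1.0035, adjusted p = 0.0506). EL-4 tumors had 8.01, 8.61 and 8.22, against 8.16, 8.50 and 8.35 in healthy C57BL/6 spleens, and MCA203 tumors 7.73, 8.36 and 7.96, and each overlapped the healthy spleens. Pfkfb4 was lower in 4T1 tumors, with 8.47, 8.81 and 8.43 against 9.85, 9.87 and 9.55 in healthy BALB/c spleens (-1.18, SE 0.18, adjusted p = 1.11e-05). In EL-4 tumors it had 7.81, 7.74 and 8.01 against 9.49, 9.37 and 9.39 in healthy C57BL/6 spleens (-1.56, 0.18, 2.05e-07). Pdk1, which encodes a kinase that inhibits pyruvate dehydrogenase, was called in the C57BL/6 tumors by the probe set used. It had 6.76, 6.45 and 6.87 in C26-GM tumors and 7.23, 7.45 and 7.02 in 4T1 tumors, against 6.26, 6.55 and 6.21 in healthy BALB/c spleens (0.35 and 0.89, not called). Its values were 8.53, 8.78 and 8.45 in EL-4 tumors and 8.45, 8.77 and 8.42 in MCA203 tumors, against 7.15, 7.15 and 7.41 in healthy C57BL/6 spleens (1.36, SE 0.20, adjusted p = 7.94e-06, and 1.31, 0.20, 1.24e-05).

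Of the oxygen-sensing genes, Egln3, the prolyl hydroxylase that is itself a HIF target, covered the widest span of values. It stood at 9.54, 9.35 and 9.10 in C26-GM tumors and 9.67, 10.54 and 10.04 in 4T1 tumors, against 5.70, 6.01 and 5.80 in healthy BALB/c spleens. EL-4 tumors had 8.93, 9.70 and 8.67 and MCA203 tumors 6.69, 7.65 and 6.91, against 6.26, 5.94 and 5.86 in healthy C57BL/6 spleens. The changes were 3.49 (SE 0.35, adjusted p = 9.56e-09), 4.24 (0.35, 2.52e-10), 3.08 (0.35, 1.1e-07) and 1.06 (0.35, 0.0249), and the MCA203 change was not called without the second MCA203 array (0.78) or the second or the third healthy C57BL/6 array (1.03 and 0.98). A second Egln3 probe set gave 2.03 in 4T1 tumors. Hif1a had 11.55, 10.96 and 11.41 in C26-GM tumors and 11.61, 11.63 and 11.50 in 4T1 tumors, against 9.96, 9.95 and 10.02 in healthy BALB/c spleens (1.33, SE 0.16, adjusted p = 1.72e-07, and 1.60, 0.16, 6.16e-09). It had 11.47, 11.40 and 11.39 in EL-4 tumors, against 10.23, 9.91 and 9.85 in healthy C57BL/6 spleens (1.42, 0.16, 7.27e-08). MCA203 tumors had 10.66, 10.88 and 10.72, and the change of 0.76 (adjusted p = 0.000547) was below 2-fold. As the mean of its probe sets Egln3 was 0.91 in MCA203 tumors. Egln1, the main oxygen sensor of the family, was called in EL-4 tumors alone (1.05), and without the second EL-4 array it was 0.95. This rests on the probe set used. A second Egln1 probe set gave 1.06 in C26-GM, 1.38 in 4T1, 1.72 in EL-4 and 0.83 in MCA203 tumors. With housekeeping centring Egln1 (0.87), Ndrg1 (0.95), Hk3 (0.90) and Pfkm (0.96) were not called in EL-4 tumors.

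Among the other hypoxia genes, Bnip3, which acts in the removal of mitochondria, stood at 11.43, 11.0003 and 10.80 in C26-GM tumors and 11.23, 11.66 and 11.31 in 4T1 tumors, against 8.83, 8.73 and 8.58 in healthy BALB/c spleens. EL-4 tumors had 10.49, 11.12 and 10.59 and MCA203 tumors 9.89, 10.42 and 10.30, against 8.39, 8.23 and 8.26 in healthy C57BL/6 spleens. It changed by 2.36 (SE 0.26, adjusted p = 6.77e-08), 2.69, 2.44 and 1.92 (0.26, 2.53e-06), with no overlap. Ankrd37, an ankyrin repeat gene and HIF target, had 7.41, 7.25 and 7.14 in C26-GM tumors and 7.72, 8.27 and 7.94 in 4T1 tumors, against 4.97, 5.16 and 4.90 in healthy BALB/c spleens. It stood at 6.86, 8.06 and 7.24 in EL-4 tumors and 6.77, 7.36 and 7.11 in MCA203 tumors, against 5.82, 5.77 and 5.55 in healthy C57BL/6 spleens. It changed by 2.26 (SE 0.24, adjusted p = 3.08e-08), 2.97 (0.24, 2e-10), 1.68 and 1.37 in the same order of C26-GM, 4T1, EL-4 and MCA203 tumors. Higd1a, a mitochondrial protein induced by hypoxia, changed by 1.30, 1.73, 1.41 and 1.10, and as the mean of its probe sets it was 0.48, 1.09, 0.68 and 0.50, called in 4T1 tumors alone, and 0.9995 in MCA203 tumors without the second array. Ero1a, an oxidase of protein folding, had 9.38, 8.84 and 8.88 in C26-GM tumors and 10.01, 10.57 and 10.23 in 4T1 tumors, against 7.87, 7.76 and 8.08 in healthy BALB/c spleens (1.13 and 2.37). In EL-4 tumors it had 9.88, 10.64 and 9.73 and in MCA203 tumors 8.94, 9.18 and 8.94, against 8.05, 8.27 and 7.96 in healthy C57BL/6 spleens, and of these EL-4 tumors were called (1.99). Without the first C26-GM tumor array its change there was 0.96 and not called. The Ankrd37 mean in healthy BALB/c spleens was under 5.113 too. Probe sets of Ero1a disagreed in C26-GM tumors, where the others gave 2.28 and 0.55.

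Other hypoxia genes were called in fewer of the tumors. Car9, the carbonic anhydrase of the cell surface used as a hypoxia marker, was called in 4T1 tumors alone, with 7.87, 7.49 and 7.82 against 5.91, 5.82 and 5.83 in healthy BALB/c spleens (1.88, SE 0.18, adjusted p = 6.16e-09). It had 5.14, 4.95 and 5.73 in C26-GM tumors. EL-4 tumors had 6.12, 6.46 and 6.56 and MCA203 tumors 6.77, 6.63 and 6.56, against 6.03, 5.68 and 5.80 in healthy C57BL/6 spleens, with changes of 0.55 and 0.82. P4ha2, a collagen prolyl hydroxylase, had 6.38, 6.20 and 6.10 in 4T1 tumors, against 3.24, 3.22 and 3.45 in healthy BALB/c spleens (2.92, SE 0.22, adjusted p = 5.64e-11). In EL-4 tumors P4ha2 had 6.16, 6.68 and 5.73 and in MCA203 tumors 4.58, 5.07 and 4.68, against 3.19, 3.25 and 3.34 in healthy C57BL/6 spleens (2.93, 0.22, 8.29e-11, and 1.51). C26-GM tumors had 3.89, 3.77 and 3.84 and were not called. The mean of P4ha2 reached 5.113 in 2 groups, 4T1 and EL-4 tumors, so its changes are sizes against low levels, as above for Eno2, and in MCA203 tumors both sides were low. Ndrg1, a stress-response gene, had 10.33, 9.89 and 9.89 in C26-GM tumors and 10.65, 10.82 and 10.66 in 4T1 tumors, against 8.69, 8.57 and 8.29 in healthy BALB/c spleens (1.52 and 2.19). EL-4 tumors had 9.34, 9.86 and 8.9997 and MCA203 tumors 8.05, 8.95 and 8.44, against 8.31, 8.24 and 8.28 in healthy C57BL/6 spleens. EL-4 tumors were called (1.13) and overlapped MCA203 tumors in none of their arrays, and the EL-4 change was 0.90 without the second array. P4ha1, which like P4ha2 hydroxylates collagen, was called in 4T1 tumors, with 8.996, 9.26 and 9.201 against 7.89, 7.70 and 8.05 in healthy BALB/c spleens (1.27). C26-GM tumors had 8.46, 8.49 and 8.08, and EL-4 tumors 8.37, 8.95 and 8.32 and MCA203 tumors 8.81, 9.003 and 8.83, against 7.83, 7.99 and 7.99 in healthy C57BL/6 spleens, all below 2-fold. A second P4ha1 probe set gave -0.37 in C26-GM, 1.43 in 4T1, 1.02 in EL-4 and 1.35 in MCA203 tumors. Ddit4, an inhibitor of mTORC1 signalling that hypoxia and glucocorticoids both induce, was lower. It had 8.47, 7.996 and 8.05 in EL-4 tumors and 7.997, 8.50 and 8.07 in MCA203 tumors, against 9.29, 9.85 and 10.01 in healthy C57BL/6 spleens (-1.55, SE 0.35, adjusted p = 0.00118, and -1.53, 0.35, 0.00137). In C26-GM tumors it had 9.55, 9.39 and 8.54, against 9.70, 10.78 and 10.75 in healthy BALB/c spleens (-1.25, 0.35, 0.0073), and it was not called without the third C26-GM tumor array (-0.94) or the second healthy BALB/c array (-1.07). Kdm3a, Mxi1 and Pgm2 were called in none of the infiltrates.

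**Figure D2:**
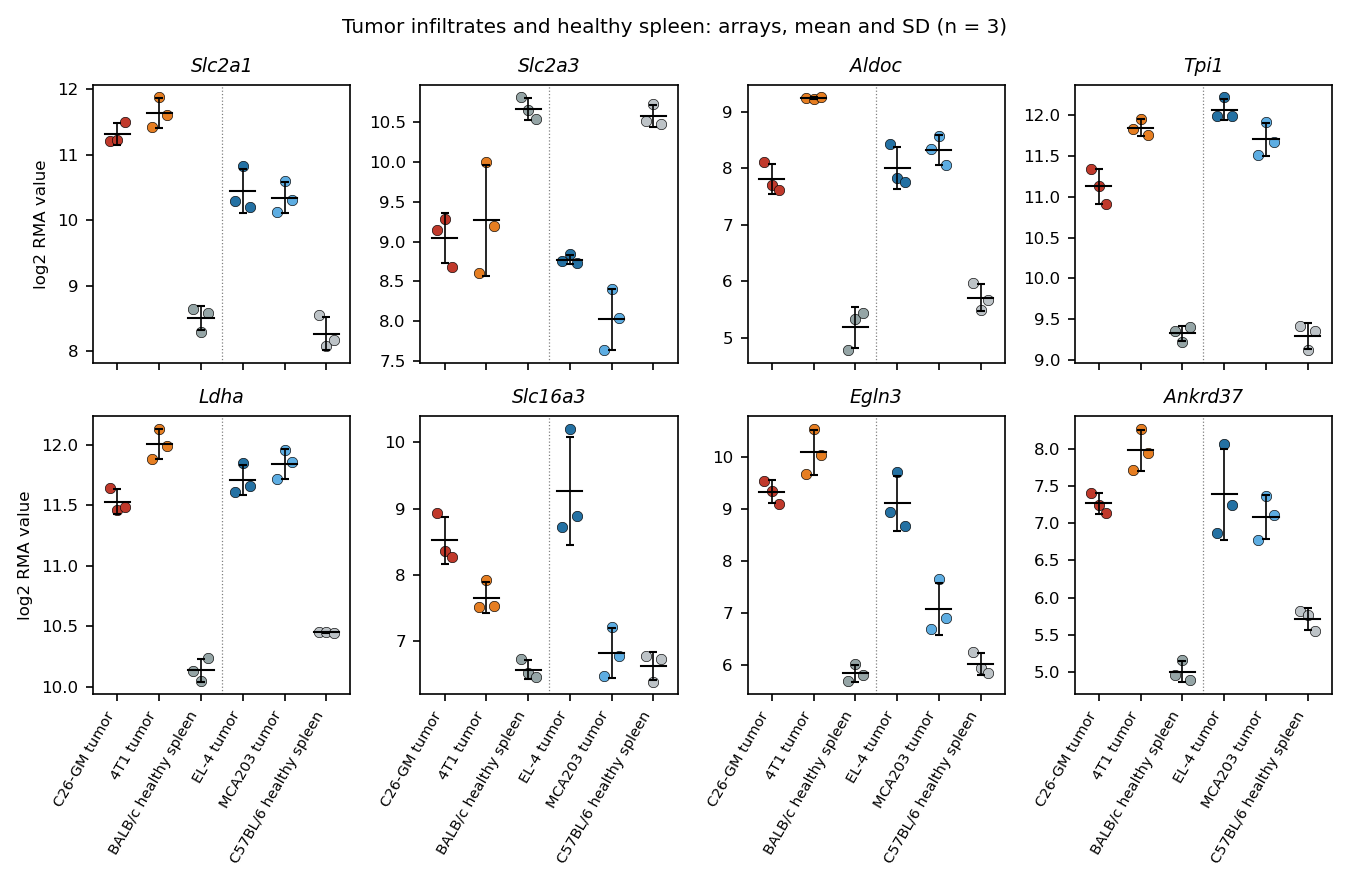
Log2 expression of 8 genes on each array (points) of the 4 tumor infiltrates and the 2 healthy spleen groups, with the group mean (line) and SD (bar, n = 3). Slc2a1, Aldoc, Tpi1, Ldha and Ankrd37 are above healthy spleen on every infiltrate array, Slc2a3 is below it, and Slc16a3 and Egln3 lie far lower in MCA203 tumors than in EL-4 tumors.

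Markers of other cells differed along with these genes, and in RNA from a mixed sample fewer cells of a type and less RNA per cell cannot be told apart. Of 5 epithelial markers (Epcam, Krt8, Krt18, Krt19 and Cldn4), 4 were called higher in 4T1 tumors, 4 in EL-4 tumors and 2 in MCA203 tumors. The list averaged 8.33 to 8.89 in 4T1 tumors, against 4.86 to 5.01 in healthy BALB/c spleens, and 6.53 to 9.87 in EL-4 and 6.35 to 7.25 in MCA203 tumors, against 4.63 to 4.80 in healthy C57BL/6 spleens. Krt8 had 10.98, 9.90 and 10.71 in 4T1 tumors, against 4.40, 4.63 and 4.70 in healthy BALB/c spleens. In C26-GM tumors none of the 5 epithelial markers was called and the list averaged 5.02 to 5.14. Of 5 fibroblast markers (Col1a1, Col1a2, Col3a1, Dcn and Pdgfrb), 3 were called higher in C26-GM tumors and 4 in each of the other infiltrates, with averages of 5.67 to 6.37 in C26-GM tumors, 7.41 to 7.71 in 4T1 tumors, 7.34 to 7.80 in EL-4 tumors and 6.44 to 7.32 in MCA203 tumors, against 4.58 to 5.03 in healthy BALB/c and 4.43 to 4.65 in healthy C57BL/6 spleens. Of 5 T cell markers, 4 were called higher in EL-4 and 4 in MCA203 tumors (averages 7.51 to 7.80 and 7.56 to 8.05, against 5.60 to 5.86 in healthy C57BL/6 spleens), and 3 were called lower in each BALB/c tumor. B cell markers averaged 4.32 to 4.73 in C26-GM tumors and 4.63 to 5.07 in 4T1 tumors, against 7.97 to 8.28 in healthy BALB/c spleens, and 7.25 to 7.43 in EL-4 and 5.41 to 5.60 in MCA203 tumors, against 8.67 to 8.95 in healthy C57BL/6 spleens, with 3 of 4 called lower in each. NK cell markers averaged 4.37 to 4.84 in C26-GM tumors and 4.41 to 4.66 in 4T1 tumors, against 7.46 to 8.02 in healthy BALB/c spleens, with 5 of 5 called lower in each. In EL-4 tumors 3 of the 5 were called higher and 1 lower, and in MCA203 tumors 1 higher. Of 5 platelet and megakaryocyte markers, 2 were called higher in each BALB/c tumor and 1 in each C57BL/6 tumor.

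The myeloid mix differed as well. Of 8 neutrophil and granulocyte markers, 3 were called lower and 1 higher in C26-GM tumors, 5 lower in 4T1 tumors and all 8 lower in EL-4 and in MCA203 tumors. The list averaged 10.68 to 11.46 in C26-GM tumors and 10.09 to 10.78 in 4T1 tumors, against 12.05 to 12.24 in healthy BALB/c spleens, and 6.55 to 7.65 in EL-4 and 6.36 to 6.75 in MCA203 tumors, against 12.12 to 12.29 in healthy C57BL/6 spleens. Of 8 monocyte and macrophage markers, 6 were called lower in C26-GM tumors (list average 9.21 to 9.59 in C26-GM tumors, against 11.48 to 11.52 in healthy BALB/c spleens). In 4T1 tumors 1 was called higher, in EL-4 tumors 1 higher and 1 lower, and in MCA203 tumors 2 higher. None of 6 cell cycle genes was called in C26-GM tumors, and 4, 2 and 5 were called higher in 4T1, EL-4 and MCA203 tumors. The part of any of these lists in the glycolysis and hypoxia results was not tested.

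In spleens of C26-GM bearing mice, 5 of the 37 genes were called higher and none lower, where 6.14% of all genes were called, 2.32% higher and 3.83% lower. All 5 encode glycolytic enzymes, and the median change was 0.92 over the 15 enzymes and 0.33 over the 14 oxygen-sensing and hypoxia genes, against 0.09 over all genes. None of the 14 was called by limma. An unadjusted p under 0.05 was met by 8 of them, 6 higher, and the share of all genes at that limit is not given here. Pfkp stood at 9.38, 9.89 and 10.01 in C26-GM spleens, against 7.93, 7.80 and 7.82 in healthy BALB/c spleens (1.91, SE 0.23, adjusted p = 6.61e-07). Pgam1 had 10.82, 10.62 and 10.47 in C26-GM spleens, against 9.27, 9.11 and 9.18 in healthy spleens (1.44, 0.15, 8.16e-08). Aldoa had 11.55, 11.33 and 11.50 in C26-GM spleens, against 10.40, 10.17 and 10.27 in healthy spleens (1.18, 0.13, 2.52e-07). None of these 3 genes overlapped between the groups, which was a condition of the choice of genes shown. Aldoc had 5.94, 6.46 and 6.29 in C26-GM spleens, against 4.78, 5.34 and 5.45 in healthy spleens (1.04, SE 0.21, adjusted p = 0.000752), and Pfkl had 8.27, 8.03 and 8.19 in C26-GM spleens, against 6.88, 7.12 and 7.49 in healthy spleens (1.003, 0.25, 0.0063). Both lay at the limit. They were 0.95 and 0.91 with housekeeping centring and 0.72 and 0.66 as the mean of their probe sets, and not called. Without the first healthy BALB/c array they were 0.84 and 0.86, also not called. Aldoc was also lost without the second C26-GM spleen array (0.93), and Pfkl without the second healthy BALB/c array (0.98) or the first C26-GM spleen array (0.95). Pgk1 (0.97, adjusted p = 1.15e-06), Ldha (0.95, 4.47e-06), Tpi1 (0.92, 4.23e-05) and Gapdh (0.83, 8.66e-06) passed the adjusted p and not the 2-fold limit, and without the first C26-GM spleen array Pgk1 was 1.04 and called.

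The spleens of C26-GM bearing mice were uneven in the hypoxia genes. Egln3 stood at 7.28, 7.10 and 5.55 in them, against 5.70, 6.01 and 5.80 in healthy BALB/c spleens (0.80, adjusted p = 0.134), and without the third C26-GM spleen array its change was 1.35 and was called. Ero1a was then called too (1.09) and Pfkl was not (0.99), which made 6 called genes, 4 of them shared with the fit on all arrays. The third C26-GM spleen array also had more fibroblast signal, with a list average of 6.10 against 4.76 and 4.77 on the others, and more platelet signal, at 8.52 against 6.92 and 7.45. It had less cell cycle signal, at 7.84 against 8.95 and 8.53, and less neutrophil signal, at 12.25 against 13.29 and 12.89. Of the 6 cell cycle genes, 4 were called higher in C26-GM spleens than in healthy spleens, whose list averaged 7.61, 7.19 and 7.31. Other lists moved as well. Monocyte and macrophage markers averaged 10.40 to 10.54 in C26-GM spleens, against 11.48 to 11.52 in healthy spleens (4 of 8 called lower), B cell markers 5.62 to 5.87, against 7.97 to 8.28 in healthy spleens (3 of 4 lower), and NK cell markers 4.52 to 4.92, against 7.46 to 8.02 in healthy spleens (5 of 5 lower). Platelet and megakaryocyte markers averaged 6.92 to 8.52 in C26-GM spleens, against 6.15 to 6.40 in healthy spleens (3 of 5 higher). Of the neutrophil markers 1 of 8 was called higher, and 2 of 5 T cell and 2 of 4 erythroid markers lower. The part of these lists in the enzyme values was not tested.

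Between the tumor and the spleen of C26-GM mice, 10 genes were called higher in the tumor and 2 lower, where 6.16% of all genes were called, 2.79% higher and 3.36% lower. Both groups carried the low Xist level. Egln3 had 9.54, 9.35 and 9.10 in the tumors, against 7.28, 7.10 and 5.55 in the spleens (2.68, SE 0.35, adjusted p = 2.61e-06). Slc2a1 had 11.21, 11.22 and 11.50 in the tumors, against 8.998, 8.79 and 8.65 in the spleens (2.497, 0.30, 1.07e-06). Pfkfb3 had 9.82, 9.52 and 9.29 in the tumors, against 8.06, 7.22 and 6.54 in the spleens (2.27, 0.38, 7.75e-05), though a second probe set gave 0.97. Each of these was apart on every array, which was a condition of the choice of genes shown. Bnip3 had 11.43, 11.0003 and 10.80 in the tumors, against 9.42, 9.61 and 8.75 in the spleens (1.82, SE 0.26, adjusted p = 1.3e-05). Aldoc (1.58), Slc16a3 (1.53), Ankrd37 (1.52), P4ha1 (1.34), Ndrg1 (1.17) and Pfkl (1.01) were also higher, and Pfkl was 0.86 without the first tumor array, 0.94 without the second spleen array and 0.72 as the mean of its probe sets. Ddit4 (-1.503, SE 0.35, adjusted p = 0.00295) and Slc2a3 (-1.37, 0.27, 0.000553) were lower in the tumor, and the adjusted p of Slc2a3 missed the threshold with the probe sets of less specific design left out.

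Some enzymes were above healthy spleen on every array in both organs of C26-GM mice and had small tumor-to-spleen differences. These were Pfkp (-0.04, SE 0.23, adjusted p = 0.955), Pgam1 (-0.02, 0.15, 0.971), Pgk1 (0.03, 0.12, 0.932) and Hk1 (-0.14, 0.20, 0.788). A second Pfkp probe set gave -1.06. Other enzymes above healthy spleen in both organs were higher in the tumor than in the spleen, with Aldoc and Pfkl called. Tpi1 (0.89, adjusted p = 6.2e-05), Aldoa (0.54, 0.005), Ldha (0.45, 0.0174) and Gapdh (0.38, 0.0276) passed the adjusted p and not the 2-fold limit. Pkm (0.41, 0.0606) passed neither. Over the 15 enzymes the median tumor-to-spleen change was 0.41, with 2 called higher, and over the 14 oxygen-sensing and hypoxia genes it was 0.54, with 5 called higher and 1 lower. Monocyte and macrophage markers were lower in the tumor (5 of 8 called, list average 9.21 to 9.59 in the tumor, against 10.40 to 10.54 in the spleen), and the neutrophil list averaged 10.68 to 11.46 in the tumor, against 12.25 to 13.29 in the spleen, with 3 of 8 called lower and 1 higher. B cell markers were lower too (3 of 4 called, 4.32 to 4.73 in the tumor, against 5.62 to 5.87 in the spleen), and 2 of 6 cell cycle genes. The part of these lists was not tested.

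**Figure D3:**
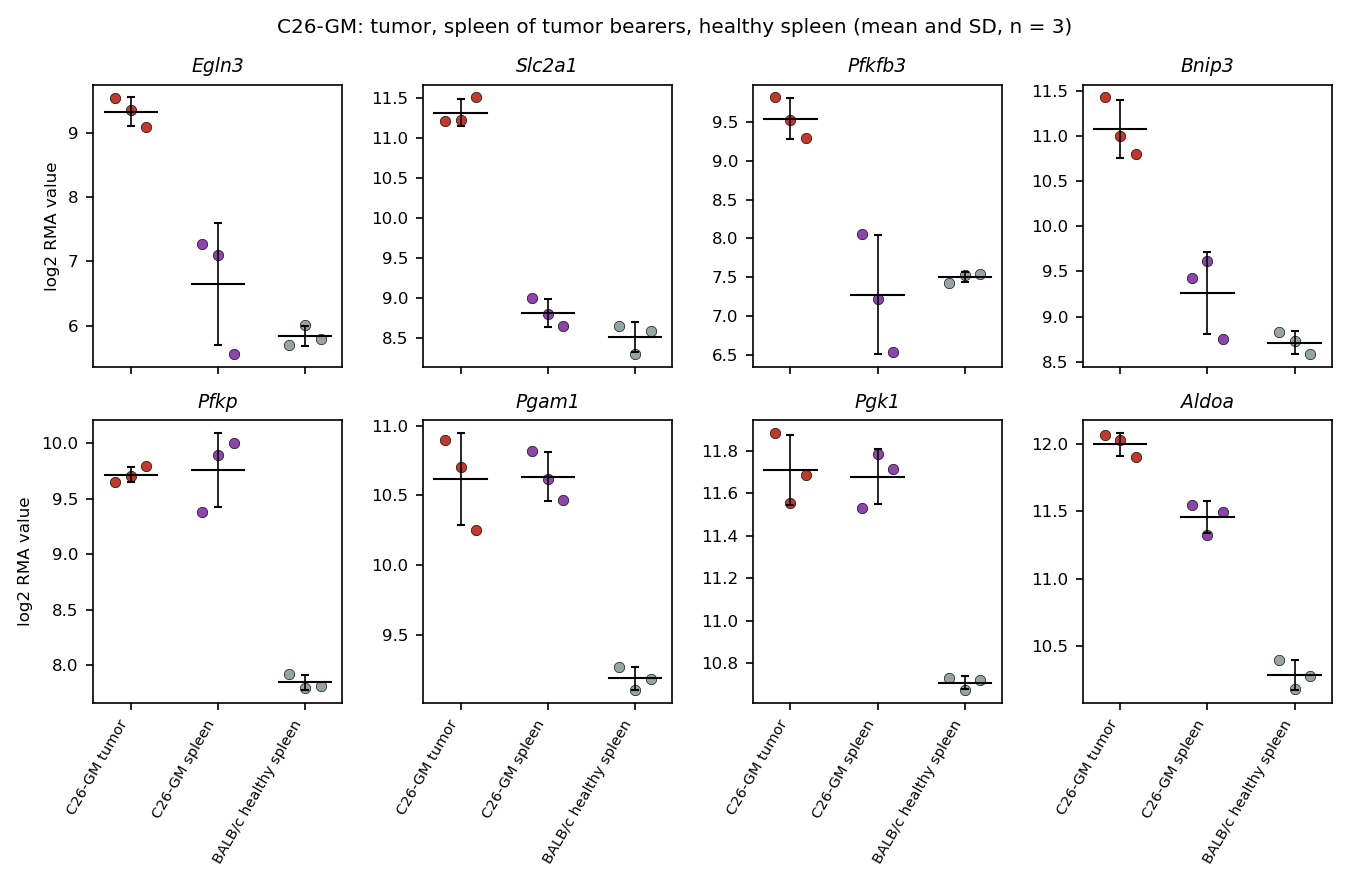
Log2 expression of 8 genes on each array (points) of C26-GM tumors, C26-GM spleens and healthy BALB/c spleens, with the group mean (line) and SD (bar, n = 3). Egln3, Slc2a1, Pfkfb3 and Bnip3 are high in the tumor, whereas Pfkp, Pgam1, Pgk1 and Aldoa are above healthy spleen in the tumor and in the spleen of tumor-bearing mice.

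The infiltrates of one strain were also set against each other. In 4T1 tumors, 6 genes were called higher than in C26-GM tumors and 1 lower, where 12.9% of all genes were called, 8.95% higher and 3.90% lower. These groups also differed in Xist (4.81) and Eif2s3y (-6.58), and the part of this was not tested. The C26-GM tumors include the third array with its large 3′ to 5′ difference, and without it 6 genes were again called higher and 1 lower. With each array centred on housekeeping genes the calls over all genes were 59.4% higher, against 69.7% as deposited, and among the 37 genes 83.3% against 85.7%, with Hk2 at 0.94 and not called. Quantile normalised again, 75.0% of the calls among the 37 genes were higher in 4T1 tumors. Car9 had 7.87, 7.49 and 7.82 in 4T1 tumors, against 5.14, 4.95 and 5.73 in C26-GM tumors (2.45, SE 0.18, adjusted p = 7.79e-11). P4ha2 (2.39, 0.22, 3.65e-09), Eno2 (2.31, 0.24, 2.39e-08), Aldoc (1.42, 0.21, 6.87e-06), Ero1a (1.24) and Hk2 (1.06) were higher as well, and Hk2 was 0.98 without the second 4T1 array and 0.999 without the second C26-GM tumor array. Pfkfb3 was lower in 4T1 tumors (-1.04, SE 0.38, adjusted p = 0.0346), and its change was not called without the first array of C26-GM or of 4T1 (-0.90 each), the second C26-GM tumor array (-1.05), as the mean of its probe sets (-0.67) or without the third 4T1 array (-0.93). Epithelial (4 of 5), fibroblast (3 of 5), cell cycle (3 of 6) and monocyte and macrophage markers (6 of 8) were called higher in 4T1 tumors in the same comparison, as was 1 of 4 B cell markers, while 2 of 8 neutrophil markers were higher and 3 lower and 1 of 5 T cell markers lower. Their part was not tested.

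EL-4 tumors had 6 genes called higher than MCA203 tumors and none lower, where 5.28% of all genes were called, 3.88% higher and 1.40% lower. Slc16a3 had 8.72, 10.21 and 8.89 in EL-4 tumors, against 6.48, 7.22 and 6.77 in MCA203 tumors (2.45, SE 0.35, adjusted p = 1.21e-05). Egln3 had 8.93, 9.70 and 8.67 in EL-4 tumors, against 6.69, 7.65 and 6.91 in MCA203 tumors (2.02, 0.35, 0.00015). Pfkl had 10.10, 10.73 and 10.07 in EL-4 tumors, against 8.36, 9.05 and 8.63 in MCA203 tumors (1.62, 0.25, 4.5e-05). These genes were apart on every array, which was a condition of the choice of genes shown, and Pfkl was 0.83 as the mean of its probe sets. P4ha2 (1.41, SE 0.22, adjusted p = 4.81e-05), Eno2 (1.07, 0.24, 0.00233) and Ero1a (1.06, 0.25, 0.00408) completed the list, and Eno2 and Ero1a were 0.73 and 0.79 without the second EL-4 array, with Eno2 at 0.95 without the third MCA203 array. With housekeeping centring 4 of the 37 genes were called, all higher, and Eno2 (0.85) and Ero1a (0.84) were not; over all genes 44.0% of calls were then higher, against 73.5% as deposited. The Eno2 means of both tumors lay under the low level of 5.113. The cell mix differed as well. B cell markers averaged 7.25 to 7.43 in EL-4 tumors, against 5.41 to 5.60 in MCA203 tumors, with 2 of 4 called higher. Of the 8 neutrophil and granulocyte markers, 2 were called higher, and 2 of 8 monocyte and macrophage and 2 of 5 NK cell markers lower. Of the epithelial, fibroblast and endothelial lists, 1 marker each was called higher, and 1 each of the T cell, erythroid and cell cycle lists lower. The part of these lists in the result was not tested.

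Healthy spleens of C57BL/6 against BALB/c mice gave no call by limma among the 37 genes, where 1.40% of all genes were called, 0.654% higher and 0.742% lower. Of the 37, 7 had an unadjusted p under 0.05, 6 of them higher in C57BL/6. The share of all genes at that unadjusted limit is not given here, so the count has no background beside it. Pdk1 passed the adjusted p without reaching 2-fold (7.15, 7.15 and 7.41 in C57BL/6, against 6.26, 6.55 and 6.21 in BALB/c, 0.90, adjusted p = 0.00933). The mean effect of the C57BL/6 tumors less that of the BALB/c tumors, each against its own healthy spleen, was called for 5 genes, all lower in C57BL/6, where 4.93% of all genes were called, 2.83% higher and 2.11% lower. The median of this difference was -0.26 over the 37 genes and 0.03 over all genes. The tumors of a strain are different lines, so strain and tumor line cannot be told apart in it.

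The level of these genes also differed among arrays of one tumor group. The second 4T1 array was the highest of its group for 31 of the 37 genes, where it was the highest for 39.4% of all genes. The second EL-4 array was the highest for 29 of 37 (33.9% of all genes) and the second MCA203 array for 31 of 37 (34.5%). The first C26-GM tumor array was the highest for 26 of 37 (30.7%). The median deviation from the group mean was 0.16, 0.17, 0.19 and 0.21 on these 4 arrays. Egln3, for example, had 10.54 on the second 4T1 array against 9.67 and 10.04 on the others, and Slc16a3 had 10.21 on the second EL-4 array against 8.72 and 8.89.

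Marker lists also varied among these arrays. The CD11b+ identity list was highest on the second 4T1 and EL-4 arrays (11.47 and 11.60), and so was the platelet and megakaryocyte list (7.49 and 7.13). On the second MCA203 array the identity list was lowest, at 11.47 against 11.57 and 11.53, and the platelet list was 6.67, against 6.78 and 6.53. The fibroblast and cell cycle lists were highest on the second EL-4 and MCA203 arrays, the cell cycle list at 8.53 and 9.38. The cell cycle list was lowest on the second 4T1 array, at 8.67 against 8.94 and 8.80. The epithelial list averaged 8.33 on the second 4T1 array, against 8.89 and 8.62 on the others, and 6.53 on the second EL-4 array, against 9.87 and 7.54, and 7.25 on the second MCA203 array, against 6.35 and 6.41. The fibroblast list averaged 7.41 on the second 4T1 array, against 7.71 and 7.57, 7.80 on the second EL-4 array, against 7.40 and 7.34, and 7.32 on the second MCA203 array, against 6.69 and 6.44. The neutrophil list averaged 10.78 on the second 4T1 array, against 10.09 and 10.72, 6.55 on the second EL-4 array, against 7.65 and 6.75, and 6.36 on the second MCA203 array, against 6.72 and 6.75. On the first C26-GM tumor array the identity list averaged 11.89, against 11.82 and 11.16, and the neutrophil list 11.46, against 11.41 and 10.68. Its platelet list was 7.58, against 7.03 and 7.45, and its fibroblast list 6.37, against 5.67 and 6.35. Its cell cycle list was 7.70, against 7.44 and 7.57, and its epithelial list 5.06, against 5.14 and 5.02. The part of these lists in the high values of these arrays was not tested.

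**Figure D4:**
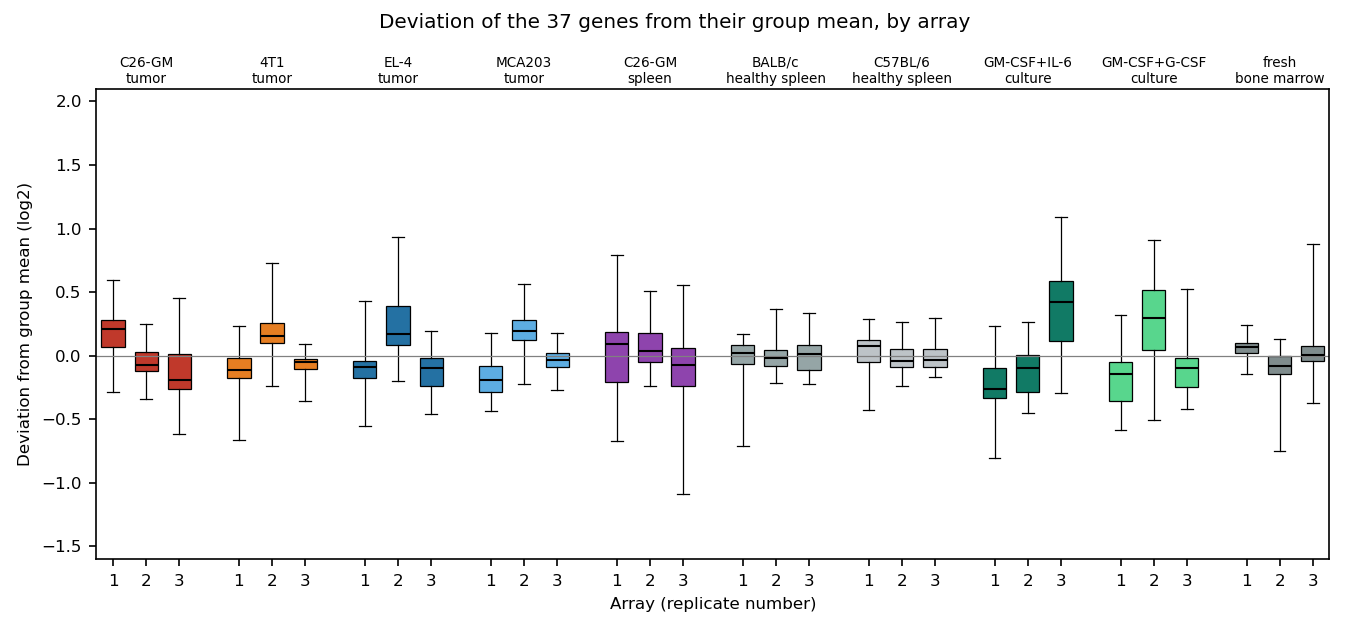
Deviation of the 37 genes from their group mean on each of the 30 arrays (log2), as box plots with whiskers to the lowest and highest gene. The second arrays of 4T1, EL-4 and MCA203 tumors, the first of C26-GM tumors and the wide-spread culture arrays lie above 0 for most genes, with medians of 0.16 to 0.42.

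Fresh bone marrow differed from healthy BALB/c spleen in 14 genes, 12 called higher and 2 lower, where 13.3% of all genes were called, 5.76% higher and 7.49% lower. Pgam1 had 11.26, 11.27 and 11.26 in marrow, against 9.27, 9.11 and 9.18 in spleen (2.07, SE 0.15, adjusted p = 3.71e-11). Slc2a3 had 12.53, 12.24 and 12.39 in marrow, against 10.82, 10.66 and 10.54 in spleen (1.71, 0.27, 1.11e-05). Slc2a1 had 7.69, 7.42 and 7.52 in marrow, against 8.65, 8.29 and 8.58 in spleen, and was below spleen on every array without reaching 2-fold (-0.97, adjusted p = 0.0166), though it was called without the second healthy array (-1.07) or the first marrow array (-1.04). In the infiltrates it was Slc2a1 that was higher and Slc2a3 lower. Slc16a3 had 8.80, 8.70 and 8.19 in marrow, against 6.73, 6.53 and 6.47 in spleen (1.99, SE 0.35, adjusted p = 5.08e-05), and Ero1a 9.92, 9.85 and 9.79 in marrow, against 7.87, 7.76 and 8.08 in spleen (1.95, 0.25, 6.61e-07). Hk1 (1.75, 0.20, 1.17e-07), Pkm (1.64), Hk3 (1.61), Egln3 (1.33), Gapdh (1.28), Pgk1 (1.22), Mxi1 (1.04) and Pgm1 (1.01) were higher. As the mean of their probe sets Mxi1 was 0.99 and Pgm1 0.57. Mxi1 was 0.98 without the third healthy array, and Pgm1 0.98 without the first, 0.97 without the first marrow array and 0.99 without the third. Ddit4 had 7.17, 6.56 and 8.19 in marrow, against 9.70, 10.78 and 10.75 in spleen (-3.11, SE 0.35, adjusted p = 5.92e-08), and P4ha1 had 6.04, 5.84 and 6.20 in marrow, against 7.89, 7.70 and 8.05 in spleen (-1.85, 0.23, 3.07e-07). In this comparison 5 of 8 neutrophil markers and all 6 cell cycle genes were called higher and all 8 monocyte and macrophage markers lower. Platelet (4 of 5) and fibroblast markers (3 of 5) were called higher as well, and NK (5 of 5) and B cell markers (3 of 4) lower. Their part was not tested.

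In the cultures the calls of several genes depended on which arrays and which scaling were used. As deposited, the culture with GM-CSF and IL-6 had 6 genes called higher than fresh marrow and 8 lower, where 14.1% of all genes were called, 5.00% higher and 9.07% lower. The culture with GM-CSF and G-CSF had 3 higher and 9 lower, where 13.9% of all genes were called, 4.48% higher and 9.37% lower. Quantile normalised again, the counts were 10 higher and 5 lower with IL-6 and 8 higher and 3 lower with G-CSF. The narrow arrays alone gave 2 higher and 10 lower with IL-6, where 1813 of all genes were called higher and 2477 lower. With G-CSF they gave 3 higher and 11 lower, where 1702 of all genes were called higher and 2378 lower. The arrays of wide spread number 1 per culture, and changes on them are given by size below. On the wide arrays 30 of the 37 genes were at their highest in each culture, where 50.9% and 49.1% of all genes were. The cell cycle list averaged 9.76 on the wide IL-6 array, against 9.05 and 9.13, and 9.49 on the wide G-CSF array, against 8.61 and 8.60. Other lists differed from fresh marrow. Monocyte and macrophage markers averaged 7.19 to 7.53 with IL-6 and 6.82 to 7.17 with G-CSF, against 9.03 to 9.51 in fresh marrow (4 and 5 of 8 called lower, 1 higher in each). Neutrophil markers averaged 12.50 to 12.61 with IL-6 and 12.50 to 12.60 with G-CSF, against 13.27 to 13.31 in fresh marrow (3 and 2 of 8 lower), and fibroblast markers 5.13 to 5.31 with IL-6 and 4.84 to 5.06 with G-CSF, against 6.45 to 7.48 in fresh marrow (3 and 4 of 5 lower). B cell and erythroid markers were lower in both as well (2 of 4 each). The part of these lists in the culture results was not tested.

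No call changed sign in these settings, and the genes that follow kept their direction too. Aldoc had 7.41, 7.51 and 8.09 with IL-6 and 7.11, 7.21 and 7.18 with G-CSF, against 4.93, 5.08 and 4.87 in fresh marrow (2.71, SE 0.21, adjusted p = 1.73e-10, and 2.21, 0.21, 6.86e-09). The Aldoc mean in fresh marrow was under 5.113, so the size of its change rests on a level not shown to be above background. Slc2a3 had 9.71, 10.28 and 10.05 with IL-6 and 9.20, 9.37 and 9.25 with G-CSF, against 12.53, 12.24 and 12.39 in fresh marrow (-2.37, 0.27, 1.13e-07, and -3.11, 0.27, 1.13e-09). Slc2a1 had 8.51, 8.53 and 9.90 with IL-6 and 8.60, 10.005 and 8.76 with G-CSF, against 7.69, 7.42 and 7.52 in fresh marrow (1.44, 0.30, 0.000524, and 1.58, 0.30, 0.000193). Its change was 2.36 on the wide and 0.98 on the narrow arrays with IL-6, and 2.46 and 1.14 with G-CSF. Aldoc and Slc2a3 were apart from fresh marrow on every culture array, which was a condition of the choice of genes shown. They moved by less between the sets, with 3.13 and 2.502 for Aldoc and -2.34 and -2.39 for Slc2a3 with IL-6. Pfkfb3 was lower, with 4.78, 5.31 and 6.68 with IL-6 and 5.71, 6.997 and 5.72 with G-CSF, against 7.78, 7.74 and 7.90 in fresh marrow (-2.21, SE 0.38, adjusted p = 4.2e-05, and -1.66, 0.38, 0.00106). On the wide G-CSF array it was -0.81. Pfkfb4 had 7.83, 8.40 and 8.76 with IL-6 and 8.45, 8.88 and 8.55 with G-CSF, against 10.23, 10.03 and 10.20 in fresh marrow (-1.82, 0.18, 1.53e-08, and -1.53, 0.18, 2.66e-07).

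Other culture calls were less stable. Hif1a was higher with IL-6 (10.30, 10.36 and 10.70 with IL-6, against 9.31, 9.35 and 9.35 in fresh marrow, 1.11, SE 0.16, adjusted p = 3.21e-06), while a second probe set gave -0.50. With G-CSF Hif1a was 0.99 and not called as deposited and 1.19 when quantile normalised again. Ankrd37 was higher in both cultures (1.27 with IL-6 and 1.25 with G-CSF), and Pfkp (1.57) and Pfkl (1.03) with IL-6. The Ankrd37 mean in fresh marrow was also under 5.113. Without the third IL-6 array, the wide one, Hif1a (0.99), Ankrd37 (0.99), Slc2a1 (0.98) and Pfkl (0.71) were not called with IL-6, and Pfkl was 0.95 without the second marrow array. Mxi1, a repressor of Myc targets, was lower in both (-1.35 and -1.02), with -0.91 and -0.66 on the wide arrays. Ndrg1 (-1.27 and -1.06), Ero1a (-1.14 and -1.13) and, with IL-6, Kdm3a (-1.03) were lower as deposited and were not called when quantile normalised again. Without single arrays several were not called either: Ero1a without the first IL-6 array (-0.92) or the third G-CSF array (-0.96), Ndrg1 without the third G-CSF array (-0.90), Kdm3a without the first or second IL-6 array (-0.88 and -0.84) or the third marrow array (-0.97), and Mxi1 with G-CSF without the first or the third G-CSF array (-0.99 and -0.87) or the first or the third marrow array (-0.998 and -0.999). With G-CSF, Hk2 (-1.03) and Hk3 (-1.13) were lower too, Hk2 being -0.96 without the first marrow array, -0.90 without the first and -0.97 without the third G-CSF array. Ddit4 was lower in both cultures (-1.11 with IL-6 and -1.08 with G-CSF), but -0.66 and -0.64 without the third marrow array, where its level was 8.19; the call was also lost without the first or second IL-6 array (-0.85 and -1.04) and without the third G-CSF array (-0.93). Higd1a was not called as deposited (0.84 and 0.70) and was called higher after quantile normalisation (1.16 and 1.02). Between the cultures, with IL-6 against G-CSF, limma called none of the 37 genes, where 0.654% of all genes were called, 0.456% higher and 0.198% lower. Of the 37, 4 had an unadjusted p under 0.05, and the share of all genes at that limit is not given here. The largest difference was that of Pfkp (9.28, 9.14 and 10.10 with IL-6, against 8.202, 9.30 and 8.42 with G-CSF, 0.87, adjusted p = 0.0604), called without the second IL-6 array (1.05) or the second G-CSF array (1.20).

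**Figure D5:**
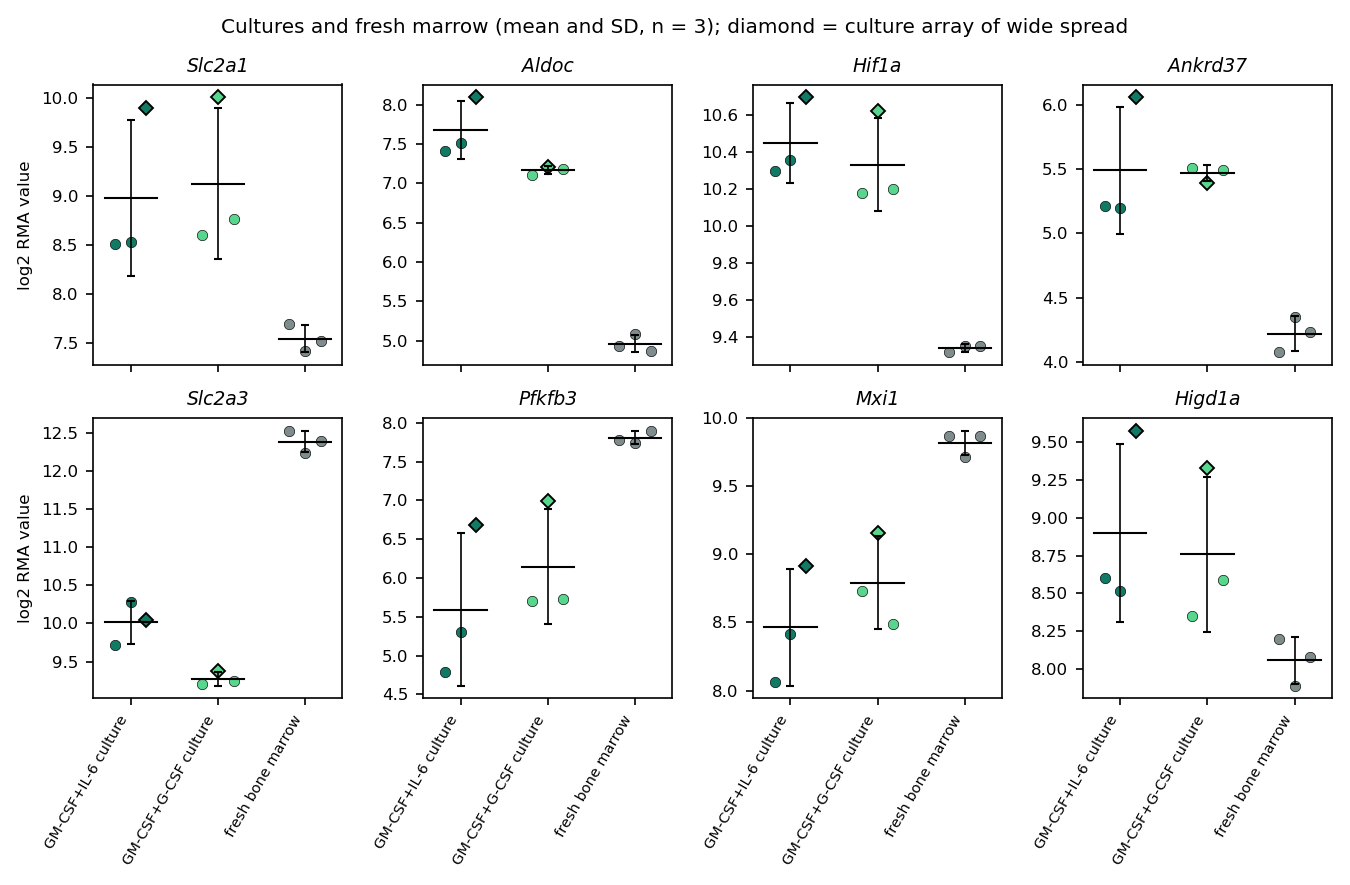
Log2 expression of 8 genes on each array of the GM-CSF and IL-6 culture, the GM-CSF and G-CSF culture and fresh bone marrow, with the mean (line) and SD (bar, n = 3); diamonds mark the culture arrays of wide spread. Aldoc is above and Slc2a3 below fresh marrow on every culture array, and the diamonds lie highest for Slc2a1, Hif1a, Mxi1 and Higd1a.

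Genes of neighbouring pathways, listed by function, were read in the same fits. Of 15 further HIF target genes, 4 were called higher in C26-GM tumors, 9 in 4T1 tumors, 11 in EL-4 tumors and 4 in MCA203 tumors, and none in C26-GM spleens, with none lower in these. Hilpda, a lipid droplet protein, had 10.80, 10.07 and 9.45 in C26-GM tumors and 10.13, 10.97 and 10.41 in 4T1 tumors, against 6.07, 6.20 and 6.09 in healthy BALB/c spleens (3.99, SE 0.26, adjusted p = 2.39e-12, and 4.38, 0.26, 3.93e-13). It changed by 3.43 in EL-4 and 2.84 in MCA203 tumors. Plod2, a collagen lysyl hydroxylase, had 7.82, 7.18 and 8.13 in 4T1 tumors, against 4.21, 3.56 and 3.42 in healthy BALB/c spleens (3.98, SE 0.31, adjusted p = 8.58e-11, against a low level), and was near healthy spleen in C26-GM tumors (0.26, adjusted p = 0.56). Vegfa changed by 3.66 in 4T1, 2.16 in EL-4 and 2.29 in MCA203 tumors and by 1.39 in C26-GM tumors, where the arrays had 7.77, 6.95 and 5.69. Of 9 other glucose and monocarboxylate transporters, Slc16a1, which encodes the transporter MCT1, was higher in 4T1 (2.35), EL-4 (1.34) and MCA203 tumors (1.20). Epas1, the gene of HIF-2α and one of 8 further regulators of the HIF pathway, was higher in 4T1 (1.91) and EL-4 tumors (2.41).

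Of 8 other enzymes of glycolysis and gluconeogenesis, 2 were called higher and 2 lower in C26-GM spleens, 1 and 2 in C26-GM tumors, 0 and 2 in 4T1 tumors, 1 and 2 in EL-4 tumors and 0 and 3 in MCA203 tumors. Eno3, the muscle enolase, had 5.64, 6.22 and 6.13 in C26-GM spleens and 5.81, 6.30 and 5.96 in C26-GM tumors, against 9.09, 9.56 and 9.60 in healthy BALB/c spleens (-3.42, SE 0.19, adjusted p = 4.43e-13, and -3.39, 0.19, 1e-13). It was lower in 4T1 (-1.94), EL-4 (-2.54) and MCA203 tumors (-2.33) as well. Bpgm, known from red cells, was lower in the same groups, with changes of -1.30, -1.76, -1.40, -1.08 and -1.14 for C26-GM spleen and C26-GM, 4T1, EL-4 and MCA203 tumors, and erythroid markers were lower there too (2, 3, 3, 2 and 2 of 4 called lower). Fbp1, which runs the phosphofructokinase step backwards, had 10.56, 10.02 and 7.74 in C26-GM tumors and 9.18, 8.34 and 6.44 in C26-GM spleens, against 6.10, 6.27 and 6.07 in healthy BALB/c spleens (3.29, SE 0.50, adjusted p = 1.09e-05, and 1.84, 0.50, 0.0122), and the third array of both C26-GM groups was nearest to healthy spleen. Adpgk, an ADP-dependent glucokinase, was higher in C26-GM spleens (1.64) and lower in MCA203 tumors (-1.25), and Ldhb, the heart lactate dehydrogenase, was higher in EL-4 tumors (1.09). Pfkfb2, Pklr and Fbp2 were called in none of these groups. Of 18 genes of pyruvate dehydrogenase and the citrate cycle, 1 was called in C26-GM spleens (higher), 1 in C26-GM tumors (lower), 1 in 4T1 tumors, 3 in EL-4 tumors and 1 in MCA203 tumors (all higher). Of 6 pentose phosphate genes, none was called in C26-GM spleens or tumors, 1 was lower in each of the other infiltrates, and 4 were higher in fresh marrow than in healthy spleen.

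Across the 10 group means, 3 genes tracked the median of the other members most closely, Pgm1 (r = 0.92), Higd1a (0.92) and Egln3 (0.91), and Pfkfb4 (-0.62), Slc2a3 (-0.61) and Ddit4 (-0.07) least, as a description over groups that share the arrays' scaling. The highest group mean of Slc2a1, Aldoc, Hif1a, Egln3, Bnip3, Ankrd37 and Ndrg1 was that of 4T1 tumors, and that of Pfkl, Pfkp, Tpi1, Pgk1, Slc16a3 and Pdk1 that of EL-4 tumors. Slc2a3, Pfkfb4, Pkm, Hk1 and Hk3 were highest in fresh bone marrow. The median over the 37 genes on single arrays ran from 8.51 to 8.76 in C26-GM spleens, 8.88 to 9.38 in C26-GM tumors and 9.26 to 9.67 in 4T1 tumors, against 8.01 to 8.13 in healthy BALB/c spleens. It ran from 8.89 to 9.70 in EL-4 tumors and 8.43 to 8.89 in MCA203 tumors, against 8.23 to 8.31 in healthy C57BL/6 spleens, and neither strain's infiltrates overlapped their healthy spleens in this median.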

How the data were processed

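CD11b+ cells of 10 groups were measured on 30 arrays, 3 per group. The values are log2 expression as the authors deposited them, normalised by RMA per the submitters' processing notes; no version is given in the sources here. Of 45101 probe sets, 34958 carried 1 gene symbol, 932 several and 9211 none, and the brightest probe set with 1 symbol stood for each of 18194 genes. Among the 37 genes, 15 had a single probe set. One model of 10 group means over all arrays was fitted in limma 3.58.1 (R 4.3.3), with Benjamini-Hochberg adjustment over all genes in each comparison. Calls needed an adjusted p below 0.05 and at least a 2-fold change. The number of arrays, 3 per group, limits the precision. Members, lists, comparisons and alternatives were chosen with earlier results of these data known. Every array is given for a listed panel of 22 genes in the infiltrates and for the 4 called, non-overlapping genes with the largest change per comparison; other genes are given by change or count, and further genes singled out were chosen after their values were seen. Alternatives were housekeeping centring (8 genes), quantile normalisation again, compared groups only, array weights, dim genes left out (12971 kept), averages over the probe sets of a gene, probe sets with the suffix x or s left out (17904 genes kept), a trended and robust prior, a stricter adjusted p of 0.01, a replicate block, and leaving out arrays; the culture array sets were added after seeing the data. Figures were drawn with Python 3.11.15. Scanner files were not used here. The script was tested on simulated data.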

Additional observations from a re-analysis of the deposited data

Results flagged for a closer look

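Of the 37 genes, 5 differed between the tumor pairs of the strains when the difference itself was tested in limma, where 4.93% of all genes were called, as the mean change of both C57BL/6 tumors less the mean change of both BALB/c tumors, each against its own healthy spleen. Eno2 had a mean change of -0.17 in C57BL/6 tumors and 1.85 in BALB/c tumors, a difference of -2.02 (SE 0.29, adjusted p = 1.88e-05). Within BALB/c it rested on 4T1 tumors, whose arrays had 6.71, 7.003 and 6.32, against 4.62, 4.12 and 4.35 in C26-GM tumors. Egln3 changed by 2.07 in C57BL/6 tumors and 3.87 in BALB/c tumors, a difference of -1.79 (SE 0.42, adjusted p = 0.00642), with MCA203 tumors at 1.06 and EL-4 tumors at 3.08. Pfkfb3 changed by -0.19 in C57BL/6 tumors and 1.52 in BALB/c tumors, a difference of -1.71 (SE 0.46, adjusted p = 0.0176). Ndrg1 changed by 0.67 in C57BL/6 tumors and 1.86 in BALB/c tumors, a difference of -1.19 (SE 0.28, adjusted p = 0.00546), and Ankrd37 by 1.52 in C57BL/6 tumors and 2.61 in BALB/c tumors, a difference of -1.09 (SE 0.29, adjusted p = 0.0175). Both tumors of a strain share its healthy spleens, and strain and tumor line cannot be told apart. The Ankrd37 call was lost without the first EL-4 array (-0.96), the third healthy BALB/c array (-1.03) or the first or second healthy C57BL/6 array (-1.04 and -1.06), and the Pfkfb3 call without the second healthy C57BL/6 array (-1.63). As the mean of probe sets, Egln3 was -1.10 and Ndrg1 -1.03, and neither was called. The Eno2 mean was under 5.113, the 40th percentile of all group means, in every group but 4T1 tumors, so the size of its difference rests on levels not shown to be above background. A second Egln3 probe set gave a difference of -0.41.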

How the results depend on the processing

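Of 173 calls over all comparisons, 120 were kept under every alternative, 53 were lost under at least 1, and 36 changes gained a call; no call changed sign. Values of single genes kept their direction and their side of the threshold in 8985 of 9236 recomputations, with 159 weaker and 92 stronger. In C26-GM spleens the 5 called genes became 3 with housekeeping centring and 3 to 6 with 1 array left out. The 5 differences between strains became 3 as the mean of all probe sets, 3 at an adjusted p below 0.01 and 3 to 5 with 1 array left out. Between the cultures 0 genes of the 37 became 0 to 1 with 1 array left out. Over all genes the 119 calls between the cultures became 2 with the compared groups only, 200 with array weights, 65 at an adjusted p below 0.01, 37 with the wide-spread arrays only and 64 to 225 with 1 array left out. Against fresh marrow, the IL-6 culture's 2560 calls became 4253 with array weights, 4290 with the narrow arrays only and 2214 to 4288 with 1 array left out, and the G-CSF culture's 2520 became 4022, 4080 and 2223 to 4075. With quantile normalisation again, calls over all genes higher in the cultures were 49.9% with IL-6 and 46.3% with G-CSF, against 35.5% and 32.4% as deposited. The cause of these changes was not tested.

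With 1 array left out, the count of called genes ran from 19 to 22 in C26-GM tumors, 25 to 28 in 4T1 tumors, 27 to 29 in EL-4 tumors and 17 to 21 in MCA203 tumors, and the lowest in MCA203 tumors came without its second array. Housekeeping centring moved the median of all genes by -0.22 for EL-4 against MCA203 tumors, 0.19 for C26-GM tumor against spleen, -0.18 for EL-4 tumors against healthy spleen, -0.12 for 4T1 against C26-GM tumors and -0.10 for the difference between strains. Calls over all genes that were higher were then 43.6% in EL-4 tumors, against 59.3% as deposited, and 61.8% in C26-GM tumors against their spleens, against 45.4%. With it EL-4 tumors had 25 genes called.

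Arrays of the same replicate number were correlated in their deviations. Over 39 pairs the correlations lay between -0.85 and 0.79, and in 0 of 13 comparisons was every pair above 0.1. By that rule no comparison was treated as paired. Between C26-GM tumors and C26-GM spleens the correlations were 0.37, 0.06 and 0.47, each above 0. The labels name no animals, so whether these tumors and spleens came from the same mice is not known. With the replicate number as a block the counts of called genes were 5 in C26-GM spleens, 21, 27, 29 and 21 in C26-GM, 4T1, EL-4 and MCA203 tumors, 12, 7 and 6 between groups of tumor-bearing mice, 0 between healthy spleens, 14 in fresh marrow, 14, 12 and 0 for the cultures and 5 between strains, as without it. These counts do not decide whether samples were paired, because the replicate numbers are not known to mark animals.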
